A study of Mus musculus with 7 samples.

Results

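The lysosomal genes described here are 40 genes for hydrolases, cathepsins and lysosomal membrane proteins. They were chosen by gene symbol for their known place in the lysosome, but with earlier results of these data known. Each matched 1 of the 55401 gene identifiers in the deposited table. All 40 passed the filter on low counts that left 19199 genes for testing, and the lowest count of any of them in any library was 99. They were sorted by role into 13 proteases, 14 glycosidases and sulfatases, 6 lipid enzymes and carriers, and 7 membrane proteins.

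RNA was sequenced from microglia of the dorsal hippocampus of male C57BL/6 mice aged 6 to 8 weeks. Every mouse had AAV-RAM-Cre injected into the dentate gyrus of the dorsal hippocampus, where the activity-dependent RAM promoter drives Cre in neurons engaged by an experience (engram neurons). The 4 EYFP libraries came from mice that also received the Cre-dependent AAV-Dio-EYFP, and the 3 ATG7 libraries from mice that received AAV-Dio-Atg7-Flag. The transgene was thus directed at neurons, whereas the RNA came from cells enriched with beads against the myeloid surface protein CD11b. The labels do not say whether a library is 1 mouse or several, so the spread between libraries may in part be technical. The comparison asked how microglial transcripts differ when the autophagy gene Atg7 is overexpressed in engram neurons.

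The lysosome is the acidic organelle in which material taken up by phagocytosis, endocytosis and autophagy is broken down. Proteases, glycosidases, sulfatases and lipases in its lumen cut the material, carrier proteins present lipids to the enzymes, and heavily glycosylated membrane proteins line and protect the boundary. In microglia these enzymes degrade myelin, synapses and dead cells, and some cathepsins also prepare peptides for presentation on MHC class II. Many lysosomal genes are bound by the transcription factor TFEB at an E-box, CACGTG, near the transcription start.

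Promoter letters of 4 genes are shown because all 4 lay higher in every ATG7 library (values follow) while their promoters differ in the motifs they hold. Ctsd, the aspartic protease, and Lamp1, an abundant membrane glycoprotein, hold the E-box, whereas Ctss and Ctsz, cysteine proteases, do not. Each line gives the 250 bases before the annotated start from RefSeq on GRCm38.p6, written 5′ to 3′ on the strand of the gene. Capitals mark CACGTG, a palindrome that reads the same on both strands, and GAAA followed after any 2 bases by GAAA, on either strand, a form of the interferon-stimulated response element.
Ctsd (chr7:142387828-142388077, - strand): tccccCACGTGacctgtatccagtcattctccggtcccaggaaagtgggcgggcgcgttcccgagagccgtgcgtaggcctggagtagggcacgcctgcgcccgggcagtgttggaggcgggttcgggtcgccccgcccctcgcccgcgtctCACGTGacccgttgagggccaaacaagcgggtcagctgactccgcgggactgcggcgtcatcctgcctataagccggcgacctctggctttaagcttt
Lamp1 (chr8:13158911-13159160, + strand): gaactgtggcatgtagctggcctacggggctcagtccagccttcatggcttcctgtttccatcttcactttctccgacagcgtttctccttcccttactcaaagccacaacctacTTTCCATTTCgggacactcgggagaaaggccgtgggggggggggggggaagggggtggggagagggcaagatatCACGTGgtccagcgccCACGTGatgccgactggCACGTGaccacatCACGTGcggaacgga
Ctss (chr3:95526536-95526785, + strand): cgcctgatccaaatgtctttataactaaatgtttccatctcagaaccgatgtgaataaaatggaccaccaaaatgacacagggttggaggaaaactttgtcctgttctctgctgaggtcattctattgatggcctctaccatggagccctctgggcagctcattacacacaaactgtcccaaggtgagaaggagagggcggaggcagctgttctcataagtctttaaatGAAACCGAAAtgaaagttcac
Ctsz (chr2:174439040-174439289, - strand): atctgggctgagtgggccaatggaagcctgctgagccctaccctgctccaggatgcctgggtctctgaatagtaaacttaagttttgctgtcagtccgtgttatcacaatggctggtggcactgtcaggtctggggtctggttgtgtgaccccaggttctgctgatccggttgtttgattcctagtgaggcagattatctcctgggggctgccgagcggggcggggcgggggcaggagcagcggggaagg

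In windows of 300 bases around the start (250 before and 50 after), CACGTG occurred in 12 of the 35 lysosomal genes that had a window, or 34.3%, and in 8.09% of all 27025 genes with one. The 12 were Ctsa, Ctsd, Ctsf, Ctsl and Lgmn among proteases, Arsa, Gaa, Gla, Glb1 and Naglu among glycosidases and sulfatases, and Lamp1 and Mcoln1 among membrane proteins. Lamp1 held 4 copies, the nearest beginning 15 bases before the start, and Ctsd held 2. The longer palindrome TCACGTGA, which contains CACGTG, occurred in 4 of the 35 genes (Ctsa, Ctsd, Gla and Mcoln1) and in 1.12% of all genes. The motif of paired GAAA, searched on both strands and sharing no letters with CACGTG in these genes, occurred in 3 of the 35 (Ctss, Lamp1 and Ctso) and in 3.99% of all genes. In Ctss it began 21 bases before the start. No windows were at hand for Asah1, Ctsb, Ctsh, Galns and Npc1. These matches describe letters, and binding was not measured.

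Library totals lay between 35934210 and 55217119 counts. Among 10 microglial markers, the summed level was 18168 to 22185 CPM in EYFP and 17920.1 to 21759.5 CPM in ATG7 (CPM are counts per 1e6 counts of the library, after scaling by TMM factors that even out composition). None of the 10 was near 0, and 5 were higher in ATG7. RNA of other cells was present: 10 choroid plexus markers, led by Ttr, summed to 55247 to 72929 CPM in EYFP and 46804 to 61669 CPM in ATG7, all 10 lower in ATG7 with 2 not overlapping. Neuronal markers summed to only 26.2 to 47.8 CPM in EYFP and 27.6 to 31.6 CPM in ATG7, and 9 of the 9 tested were lower in ATG7. Atg7 itself was at 33.6 to 37.6 CPM in EYFP and 31.9 to 37.4 CPM in ATG7, which does not check the labels since the transgene was directed at neurons. The library labelled EYFP 3 stood apart by Xist, the transcript of the inactive X chromosome, at 938 CPM against at most 0.573 CPM in the other 6 libraries, although the series describes male mice. The main counts over the lysosomal genes (called, higher and not overlapping) and the overlaps that it decides among them are given with and without it.

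No lysosomal gene was called different between the groups, but 9 of the 40 lay higher in every ATG7 library than in any EYFP library. These 9 were 6 cathepsin genes (Ctsb, Ctsc, Ctsd, Ctsh, Ctss and Ctsz), the peptidase gene Tpp1, the hexosaminidase gene Hexa and the membrane gene Lamp1, with fitted folds between 1.07 and 1.34. Of the 40 genes 0 had an adjusted p under 0.05 by edgeR's quasi-likelihood test with Benjamini-Hochberg adjustment over all genes, where 0.755% of the 19199 genes tested did (0.688% higher and 0.0677% lower in ATG7). At an unadjusted p under 0.05 there were 9, all higher in ATG7, or 22.5% of the 40, where 6.27% of all genes were higher and 5.71% lower at that p. Groups did not overlap for 11.2% of all genes, with ATG7 above for 6.33% and below for 4.90%. The Wald test of DESeq2 called 7 of the 40, all higher (Ctsb, Ctsc, Ctsd, Ctsh, Ctss, Ctsz and Hexa), where it called 3.26% of the 17566 genes it adjusted (2.30% higher and 0.956% lower). The calls thus depended on the tool. Without the library labelled EYFP 3, edgeR again called 0 of the 40, where it called 0.871% of all genes. At an unadjusted p under 0.05 by edgeR there were 7 rather than 9. Then 12 of the 40 did not overlap, the 9 genes among them, where 16.0% of all genes did not. Groups with fewer libraries separate more readily.

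Over all 40 genes the median log2 fold change was 0.072, with 30 genes higher and 10 lower, against a median of -0.0037 and 49.2% higher over all genes tested. Without the library labelled EYFP 3 the median was 0.073 with 29 genes higher. It was 0.035 with 23 higher without ATG7 3, and 0.12 with 34 higher without ATG7 1. It was 0.035 with 26 higher with choroid plexus markers as a covariate, and 0.033 with 26 higher when scaled to microglial markers. Without ATG7 1 the number of lysosomal genes that did not overlap was 21, where 21.2% of all genes did not overlap and 11.9% lay above. That library was the lowest of the ATG7 libraries in each of the 9 genes. ATG7 3 was the highest in each of them, and over the 40 genes it was the highest of the 7 libraries for 21. In bulk RNA, fewer cells of a type and less RNA per cell cannot be told apart.

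**Figure D1:**
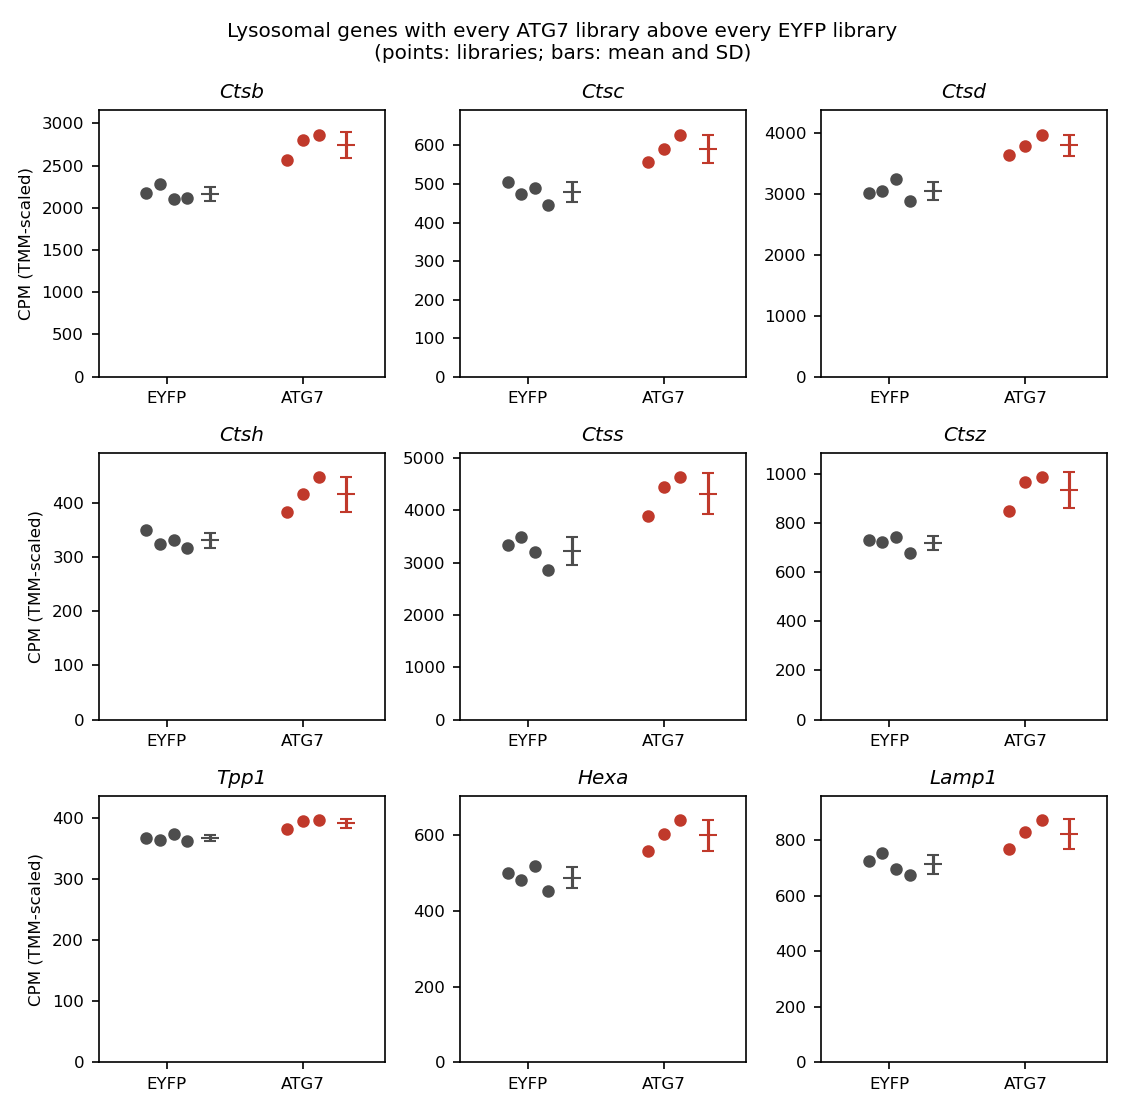
Scaled level (CPM) of the 9 lysosomal genes whose groups did not overlap, with 1 point per library (4 EYFP, grey; 3 ATG7, red) and the mean with SD beside each group; axes start at 0. Ctss shows the largest fold (EYFP at most 3487 CPM, ATG7 at least 3884 CPM) and Tpp1 the smallest (at most 374 and at least 383 CPM).

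Among the proteases, Ctss (chromosome 3, 95526786 to 95556403, GRCm38) had the highest level per length of all 40 genes, at 2720.3 CPM per kb of merged exons (mean of 7 libraries). Cathepsin S is a cysteine protease that stays active at neutral pH and trims the invariant chain of MHC class II. Its level was 3339, 3487, 3203 and 2865 CPM in EYFP 1 to 4 and 3884, 4450.3 and 4631 CPM in ATG7 1 to 3. All 3 ATG7 libraries were above all 4 EYFP libraries. The group levels were 3223 ± 266 CPM (SD, n = 4) in the EYFP group, compared with 4322 ± 389.6 CPM (SD, n = 3) in the ATG7 group, a log2 fold change of 0.42 (SE 0.106, edgeR adjusted p = 0.120).

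Ctsz (chromosome 2, 174427493 to 174439039), which encodes the carboxypeptidase cathepsin Z, had the smallest p of the 40 genes. It was at 728, 721, 743 and 678 CPM in EYFP 1 to 4 and 849.9, 964 and 985 CPM in ATG7 1 to 3. The EYFP values were tight, and the lowest ATG7 library lay 14.4% above the highest EYFP library. The difference was 0.38 on the log2 scale (SE 0.0851, edgeR adjusted p = 0.0829, DESeq2 adjusted p = 0.000213).

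Ctsb and Ctsd, 2 of the main endoproteases of the lysosome, were also higher in every ATG7 library. Ctsb was at 2170.2, 2277, 2102 and 2113 CPM in EYFP 1 to 4 and 2571, 2799 and 2868 CPM in ATG7 1 to 3, a log2 fold change of 0.34 (SE 0.0882, edgeR adjusted p = 0.128). Ctsd, the aspartic protease, was at 3024, 3059.6, 3243 and 2891 CPM in EYFP 1 to 4 and 3641, 3799.97 and 3982 CPM in ATG7 1 to 3, a log2 fold change of 0.32 (SE 0.0907, edgeR adjusted p = 0.172). In both genes ATG7 1 was the lowest ATG7 library and still about 12% to 13% above the highest EYFP library (12.2% for Ctsd and 12.9% for Ctsb). In GENCODE M21, 34.4% of the merged exon length of Ctsd is shared with the gene model Gm49369 on the same strand. The handling of such reads is not given in the sources used here, so the level of Ctsd is uncertain. Ctsb shares 12.8% of its exon length with Fdft1 on the opposite strand, and Hexa 12.8% with Tmem202, so their reads may also be mixed if strand was not used. The same holds for Lamp1, with 9.31% opposite Grtp1.

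Ctsc and Ctsh encode exopeptidases. Ctsc, a dipeptidyl peptidase that activates granule serine proteases, was at 506, 474, 491 and 445 CPM in EYFP 1 to 4 and 556, 589.6 and 628 CPM in ATG7 1 to 3. Ctsh, an aminopeptidase, was at 350.1, 325, 331 and 318 CPM in EYFP 1 to 4 and 383, 418 and 448 CPM in ATG7 1 to 3. Their log2 fold changes were 0.30 (SE 0.0825, edgeR adjusted p = 0.152) and 0.33 (SE 0.0810, edgeR adjusted p = 0.110), and their groups were separated by 9.88% and 9.51% of the highest EYFP value. Tpp1, the tripeptidyl peptidase lost in a childhood form of neuronal ceroid lipofuscinosis, was separated by only 2.21%. It was at 368, 365, 374 and 363 CPM in EYFP 1 to 4 and 383, 396 and 397 CPM in ATG7 1 to 3, a log2 fold change of 0.092 (SE 0.0699, edgeR adjusted p = 0.672).

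The other 6 proteases overlapped between the groups. Lgmn, the asparaginyl endopeptidase that cleaves cathepsin precursors, was at 1168 CPM per kb, next after Ctsd at 1437 CPM per kb. Its level was 2654, 2515, 2839 and 2466 CPM in EYFP 1 to 4 and 2466, 2983 and 3073 CPM in ATG7 1 to 3, so that ATG7 1 lay at the bottom of the EYFP range. Its log2 fold change was 0.12 with a 95% interval of -0.12 to 0.35 (edgeR adjusted p = 0.731). Ctsl, a cathepsin close to Ctss, overlapped through EYFP 2, at 609, 678, 632 and 577 CPM in EYFP 1 to 4 and 662, 711 and 759.7 CPM in ATG7 1 to 3. Its log2 fold change was 0.19 with a 95% interval of -0.0050 to 0.38 (edgeR adjusted p = 0.433). The values of Ctsa, the serine carboxypeptidase that protects beta-galactosidase and neuraminidase, gave 0.091. Those of Ctsf, Ctso and Ctsk were -0.060, -0.068 and -0.047. Ctsk, the collagen-cutting cathepsin of osteoclasts, had the lowest level of the 40 genes, at 1.68 CPM per kb.

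Summed over the 13 proteases, the level, not corrected for length, was 14635 ± 600.3 CPM (SD, n = 4) in the EYFP group, compared with 17846 ± 1320.3 CPM (SD, n = 3) in the ATG7 group. The single libraries lay between 13749 and 15054 CPM in EYFP and between 16374 and 18926 CPM in ATG7, so the sums did not overlap. The sums of the other 3 classes overlapped, at 3133 ± 53.9 CPM (SD, n = 4) in the EYFP group, compared with 3399.7 ± 313 CPM (SD, n = 3) in the ATG7 group for glycosidases and sulfatases. For lipid enzymes and carriers they were 6675 ± 322 CPM (SD, n = 4) in the EYFP group, compared with 6982 ± 343 CPM (SD, n = 3) in the ATG7 group, and for membrane proteins 2801 ± 101 CPM (SD, n = 4) in the EYFP group, compared with 2978 ± 167 CPM (SD, n = 3) in the ATG7 group. The share of all counts taken by the 40 genes together was 2.74 ± 0.0684% (SD, n = 4) in the EYFP group, compared with 3.09 ± 0.176% (SD, n = 3) in the ATG7 group, and it did not overlap. The mean log2 CPM of the 40 genes, which weighs each gene the same, did overlap, at 8.03 to 8.11 in EYFP and 8.07 to 8.25 in ATG7. On the log2 scale, where each gene weighs the same, the class means differed by 0.18 for proteases, 0.053 for glycosidases and sulfatases, 0.040 for lipid enzymes and carriers (-0.0078 without ATG7 3) and 0.075 for membrane proteins. Only for proteases did the library means not overlap. These class values are descriptions, with no test.

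**Figure D2:**
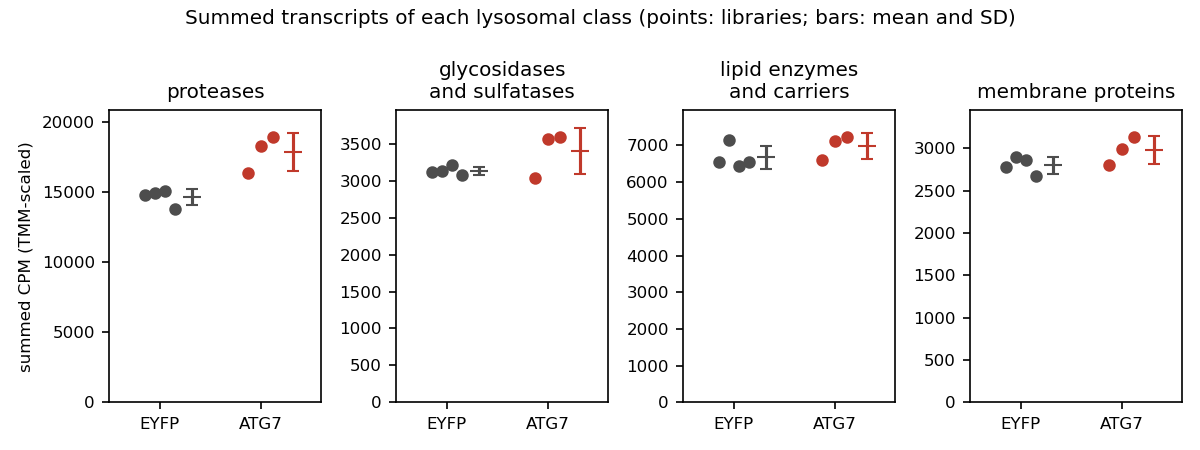
Summed scaled level (CPM) of each class of lysosomal gene, with 1 point per library (4 EYFP, grey; 3 ATG7, red) and the mean with SD beside each group; axes start at 0. Protease sums reach 15054 CPM at most in EYFP and 16374 CPM at least in ATG7, whereas the sums of the other 3 classes overlap.

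Among the 14 glycosidases and sulfatases, which remove sugars and sulfates from glycoproteins, glycolipids and glycosaminoglycans, Hexa alone did not overlap. That was 7.14% of the class, where 11.2% of all genes tested did not overlap. Without the library labelled EYFP 3, Man2b1, Gusb and Arsa did not overlap either, with ATG7 above. Hexa (chromosome 9, 59539540 to 59565109) encodes the alpha subunit of beta-hexosaminidase, deficient in Tay-Sachs disease. Its level was 500.2, 482, 519 and 452 CPM in EYFP 1 to 4 and 558, 604 and 639.8 CPM in ATG7 1 to 3. All ATG7 libraries were higher, with a log2 fold change of 0.30 (SE 0.0846, edgeR adjusted p = 0.169) and a DESeq2 adjusted p of 0.0147. Man2b1, the lysosomal alpha-mannosidase, was at 939, 907, 955 and 919 CPM in EYFP 1 to 4 and 949, 1168 and 1117 CPM in ATG7 1 to 3. ATG7 1 lay inside the EYFP range and the other 2 ATG7 libraries above it, which gave a log2 fold change of 0.21 (SE 0.0915, edgeR adjusted p = 0.388).

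The other 12 genes of this class had log2 fold changes between -0.088 (Gla, alpha-galactosidase) and 0.12 (Gusb, beta-glucuronidase). Their adjusted p by edgeR was between 0.509 (Neu1, neuraminidase) and 0.969 (Fuca1, alpha-fucosidase). The values were 0.075 for Glb1 (beta-galactosidase), -0.017 for Gaa (acid alpha-glucosidase), 0.017 for Naglu, 0.070 for Manba (beta-mannosidase) and -0.071 for Galc (galactosylceramidase). The sulfatase genes Arsa, Arsb and Galns gave 0.10, -0.070 and -0.025. In Arsb 1 library set the spread: ATG7 1 was at 390.4 CPM and the other 6 libraries between 507 and 559 CPM.

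**Figure D3:**
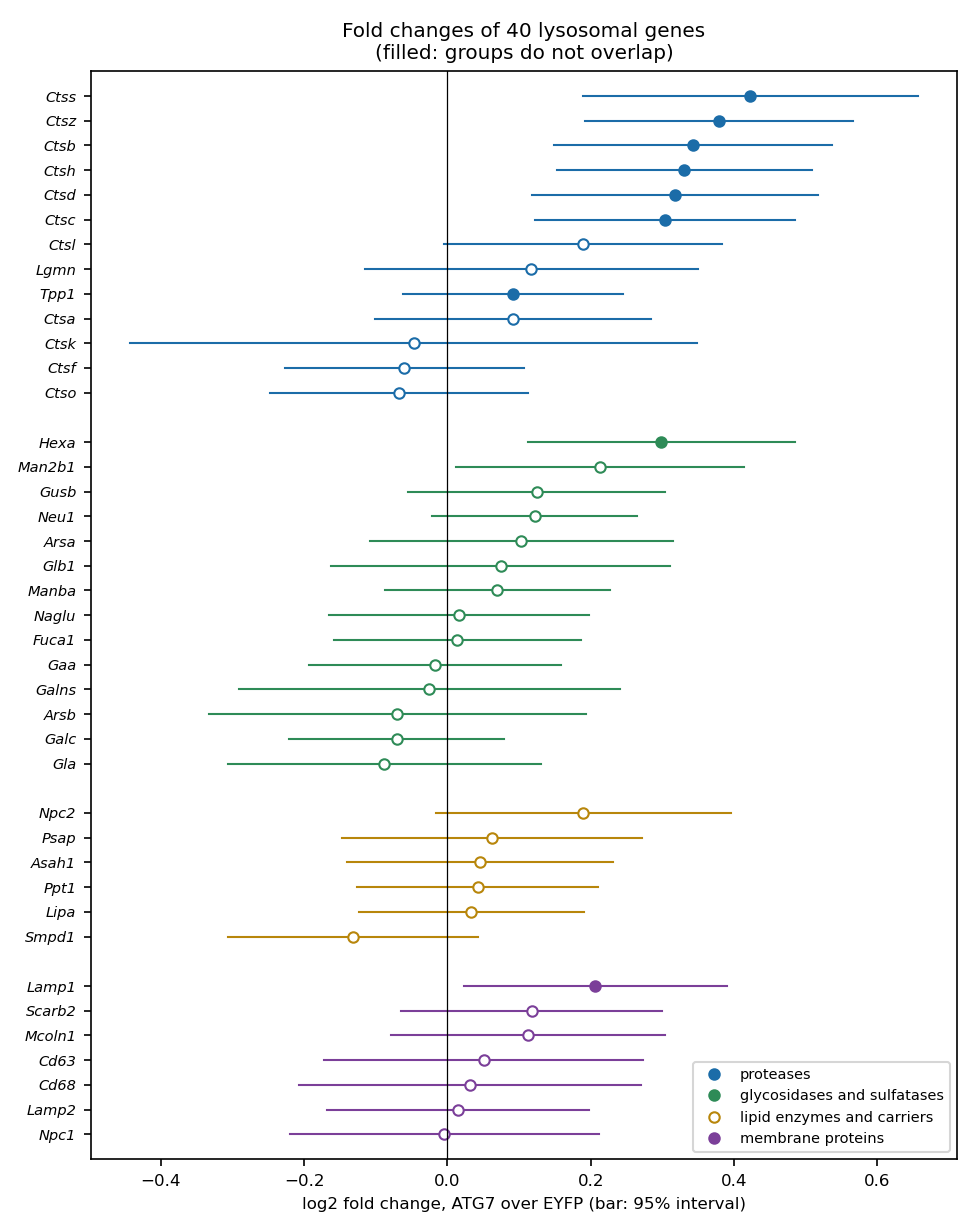
Log2 fold change of ATG7 over EYFP for the 40 lysosomal genes by class, with the 95% interval of edgeR's quasi-likelihood fit as a bar (7 libraries). Filled points mark the 9 genes whose groups do not overlap; 7 of them are proteases, and the highest value is 0.42 for Ctss.

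None of the 6 lipid enzymes and carriers separated the groups, where 11.2% of all genes tested did. Psap, which encodes the precursor of the saposins that present sphingolipids to their hydrolases, was the second most abundant of the 40 genes, at 1940.1 CPM per kb. It was at 5131, 5617, 4995 and 5158 CPM in EYFP 1 to 4 and 5171, 5602 and 5592 CPM in ATG7 1 to 3. EYFP 2 was the highest of all, and the log2 fold change was 0.062 with a 95% interval of -0.15 to 0.27 (edgeR adjusted p = 0.861). As a share of the summed CPM of the 40 genes, not corrected for length, Psap took 19.2% ± 0.866 (SD, n = 4) in the EYFP group, compared with 17.5% ± 0.474 (SD, n = 3) in the ATG7 group, and Ctss took 11.8% ± 0.645 (SD, n = 4) and 13.8% ± 0.312 (SD, n = 3). Shares of 1 total do not show which gene moved.

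Npc2, the soluble carrier of cholesterol, was at 459, 549, 471 and 462 CPM in EYFP 1 to 4 and 512, 553 and 597 CPM in ATG7 1 to 3, a log2 fold change of 0.19 (SE 0.0934, edgeR adjusted p = 0.462). EYFP 2, far above the other EYFP libraries, made the groups overlap. Smpd1, the acid sphingomyelinase, had the lowest log2 fold change of the 40 genes, at -0.13 (SE 0.0793, edgeR adjusted p = 0.571). It was at 152, 179.6, 156 and 173 CPM in EYFP 1 to 4 and 152, 146 and 154 CPM in ATG7 1 to 3, and the groups overlapped. Asah1, the acid ceramidase, was at 435, 428, 445 and 407 CPM in EYFP 1 to 4 and 404, 440.5 and 483 CPM in ATG7 1 to 3, a log2 fold change of 0.045 with a 95% interval of -0.14 to 0.23. Lipa, the acid lipase, and Ppt1, the palmitoyl-protein thioesterase, gave 0.033 and 0.042.

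Lamp1 was the 1 membrane protein gene of 7 that did not overlap (14.3%, where 11.2% of all genes tested did not). Its level was 724, 753, 697 and 674 CPM in EYFP 1 to 4 and 766, 829 and 870.4 CPM in ATG7 1 to 3, a log2 fold change of 0.21 (SE 0.0837, edgeR adjusted p = 0.351), and DESeq2 did not call it (adjusted p = 0.154). The gap between the groups was 1.76% of the highest EYFP value. Lamp2, its relative and the receptor of chaperone-mediated autophagy, was at 717, 808, 758 and 709 CPM in EYFP 1 to 4 and 734, 744 and 789 CPM in ATG7 1 to 3. There EYFP 2 was the highest of all libraries, and the log2 fold change was 0.015 with a 95% interval of -0.17 to 0.20. The 2 genes were at 284 and 78.6 CPM per kb.

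Cd68, the glycoprotein used as a marker of phagocytic microglia, was at 327, 318, 368 and 307 CPM in EYFP 1 to 4 and 281, 358 and 373 CPM in ATG7 1 to 3. Its groups overlapped fully, with ATG7 1 lowest and ATG7 3 highest of all libraries. The log2 fold change was 0.032 with a 95% interval of -0.21 to 0.27 (edgeR adjusted p = 0.944). Scarb2, which carries glucocerebrosidase to the lysosome, was at 429, 394, 428 and 380.3 CPM in EYFP 1 to 4 and 411, 453 and 463 CPM in ATG7 1 to 3 and overlapped, with a log2 fold change of 0.12 (SE 0.0830, edgeR adjusted p = 0.644). Mcoln1, the lysosomal calcium channel, gave 0.11 and the tetraspanin Cd63 0.051. Npc1, the membrane partner of Npc2, gave -0.0041.

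For the 31 genes whose groups overlapped, log2 fold changes lay between -0.13 and 0.21. Their 95% intervals reached from -0.44 at the lowest (Ctsk) to 0.41 at the highest (Man2b1). The upper bounds of some of them thus reached the log2 fold changes of the cathepsin genes, and an overlap does not show that a gene stayed the same.

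The genes that separated the groups were among the more abundant of the 40. By CPM per kb, 6 of the 10 most abundant genes and 3 of the next 10 did not overlap, and 0 of the other 20 (11.2% of all genes tested did not overlap). Without the library labelled EYFP 3, Man2b1 (rank 12 by level), Gusb (rank 27) and Arsa (rank 34) did not overlap either, where 16.0% of all genes did not. With all 7 libraries the median log2 fold change was 0.25 in the first 10, 0.14 in the second, 0.015 in the third and 0.015 in the fourth. Across the 40 genes Spearman's rho between level and log2 fold change was 0.617, and Pearson's r with the log2 of the level was 0.625. Over 19174 genes tested with a length, rho was 0.0785. These values describe genes that share the same 7 libraries and are not independent, and a merged exon length can be longer than any single transcript. Psap, Lgmn and Cd68 were abundant and overlapped.

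**Figure D4:**
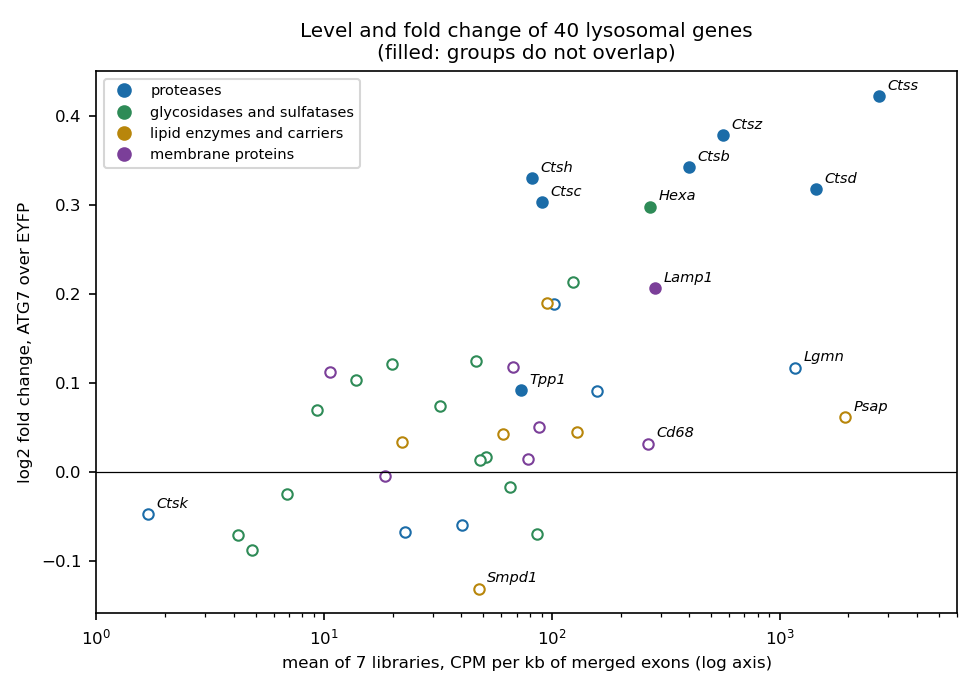
Mean level over 7 libraries (CPM per kb of merged exons, log axis) against the log2 fold change of ATG7 over EYFP for the 40 lysosomal genes, coloured by class; filled points are genes whose groups do not overlap. The 9 filled points lie at 73.2 CPM per kb or above. The abundant genes Psap (log2 fold change 0.062) and Lgmn (0.12) are not filled.

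Values of other cell types beside these differences were as follows. Microglial markers summed to overlapping levels, and their median log2 fold change was 0.018. With library factors taken from the microglial markers, an alternative chosen after seeing the data, 8 of the 40 genes did not overlap, where 7.09% of all genes did not and 4.46% lay above. The 8 were the 6 cathepsin genes, Hexa and Man2b1. Tpp1 and Lamp1 were then among the overlapping genes. Choroid plexus markers had a median log2 fold change of -0.26. With their mean level as a covariate, the median log2 fold change was 0.19 for the 13 proteases, as in the fit without it, but 0.035 rather than 0.072 for all 40 genes. In that fit edgeR called 0 of the 40 genes, where it called only 12 of all 19199 genes tested (0.0625%). Blood leukocyte markers summed to 51.2 to 77.2 CPM in EYFP and 39.7 to 133 CPM in ATG7. Of these 9 markers 5 were higher and 4 lower (Ly6g, S100a9, Ccr2 and Cd79a, the last a B cell marker at 0.359 and 0.360 CPM on average). For 3 of the 5, Cd3e, Cd3g and Nkg7, every ATG7 library was above every EYFP library, with Nkg7 at 1.22, 1.62 and 3.65 CPM in ATG7 and at most 1.00 CPM in EYFP. Border macrophage markers, from cells that also hold many lysosomes, summed to 442 to 532 CPM in EYFP and 466 to 537 CPM in ATG7, and 3 of 6 were higher. Endothelial and mural markers were higher in 8 of 8, at 443 to 731 CPM in EYFP and 575 to 982 CPM in ATG7. Astrocyte markers were lower in 6 of 8 and oligodendrocyte markers in 8 of 8. The part of these cells in the cathepsin values was not tested beyond the fits named.

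Other genes of the lysosome were taken from 6 companion lists: further hydrolases, cystatins, sorting factors, subunits of the proton pump, further membrane proteins and transcriptional regulators. Of 92 companions tested, 2 passed edgeR's test, both higher: Cst7 and Ifi30. Over all genes tested 0.755% passed, 0.688% of them higher and 0.0677% lower, as shares of all genes. Cst7 (chromosome 2, 150570415 to 150578944) encodes cystatin F, an inhibitor of cysteine cathepsins that is made by activated microglia and is directed to lysosomes. It was at 16.9, 17.5, 8.62 and 13.3 CPM in EYFP 1 to 4 and 51.3, 54.6 and 44.9 CPM in ATG7 1 to 3, a log2 fold change of 1.84 (SE 0.212, edgeR adjusted p = 0.0105). Every ATG7 value was well above every EYFP value, and the fold change was larger than the 0.42 of Ctss, the highest among the cathepsin genes. The summed level of the cystatin list did not follow it, since Cst3, a secreted cystatin, made up nearly all of that sum. Cst3 was at 8644 ± 883 CPM (SD, n = 4) in the EYFP group, compared with 8275 ± 582 CPM (SD, n = 3) in the ATG7 group.

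Ifi30, the interferon-inducible thiol reductase that opens disulfide bonds of antigens in lysosomes, rose by 0.44 on the log2 scale (SE 0.0874, edgeR adjusted p = 0.0498). It was at 59.8, 57.3, 53.2 and 56.1 CPM in EYFP 1 to 4 and 66.0, 80.2 and 84.3 CPM in ATG7 1 to 3. The groups did not overlap, but the call sat at the threshold. Over 18 alternatives its edgeR, DESeq2 or limma adjusted p ranged from 0.00150 to 0.475, and the call was lost without EYFP 2 (0.0719), EYFP 3 (0.107), EYFP 4 (0.158), ATG7 2 (0.221) or ATG7 3 (0.238). In the settings that kept all 7 libraries, a call of Ifi30 or Cst7 was lost 11 times, counted over both genes. Among these was Ifi30 with the replicate number as a block (edgeR adjusted p = 0.475). For Cst7 the range was 4.65e-17 to 0.175, the highest with the choroid plexus covariate. For this gene edgeR gave 0.0569 without ATG7 2 and 0.0709 with the replicate block, so the call was lost there too.

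The remaining lists had no gene that passed. Among 9 sorting factors the smallest p belonged to Gnptab, a subunit of the enzyme that starts the mannose-phosphate tag of hydrolases, at 42.8, 43.5, 42.4 and 45.7 CPM in EYFP 1 to 4 and 47.7, 53.4 and 57.5 CPM in ATG7 1 to 3 (log2 fold change 0.28, edgeR adjusted p = 0.156). The groups did not overlap. Of 18 pump genes 10 were higher and 8 lower, with a median of 0.018. Tcirg1, a membrane subunit, had the smallest p in that list, at 396, 277, 344 and 349 CPM in EYFP 1 to 4 and 425, 457 and 391.8 CPM in ATG7 1 to 3 (0.32, edgeR adjusted p = 0.288). Of 25 further membrane proteins 14 were higher, with a median of 0.038. Slc15a3, a lysosomal histidine and peptide transporter, was at 93.2, 87.1, 90.3 and 87.0 CPM in EYFP 1 to 4 and 97.1, 133 and 123 CPM in ATG7 1 to 3 (0.40, edgeR adjusted p = 0.114). In GENCODE M21, 28.1% of its merged exon length lies opposite Tmem132a, so reads of the 2 genes may be mixed if strand was not used.

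The 5 regulators all overlapped. Tfeb, the factor that binds the E-box, was at 53.7, 42.9, 47.6 and 51.3 CPM in EYFP 1 to 4 and 53.8, 53.5 and 56.1 CPM in ATG7 1 to 3 (0.16, SE 0.0819, edgeR adjusted p = 0.495). EYFP 1 was as high as ATG7 1 and 2. Of the 9 lysosomal genes that did not overlap, 7 had a promoter window, and 2 of these 7 held CACGTG, the letters shown for Ctsd and Lamp1. Over all lysosomal genes with a window, 12 of 35 held it (34.3%).

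**Figure D5:**
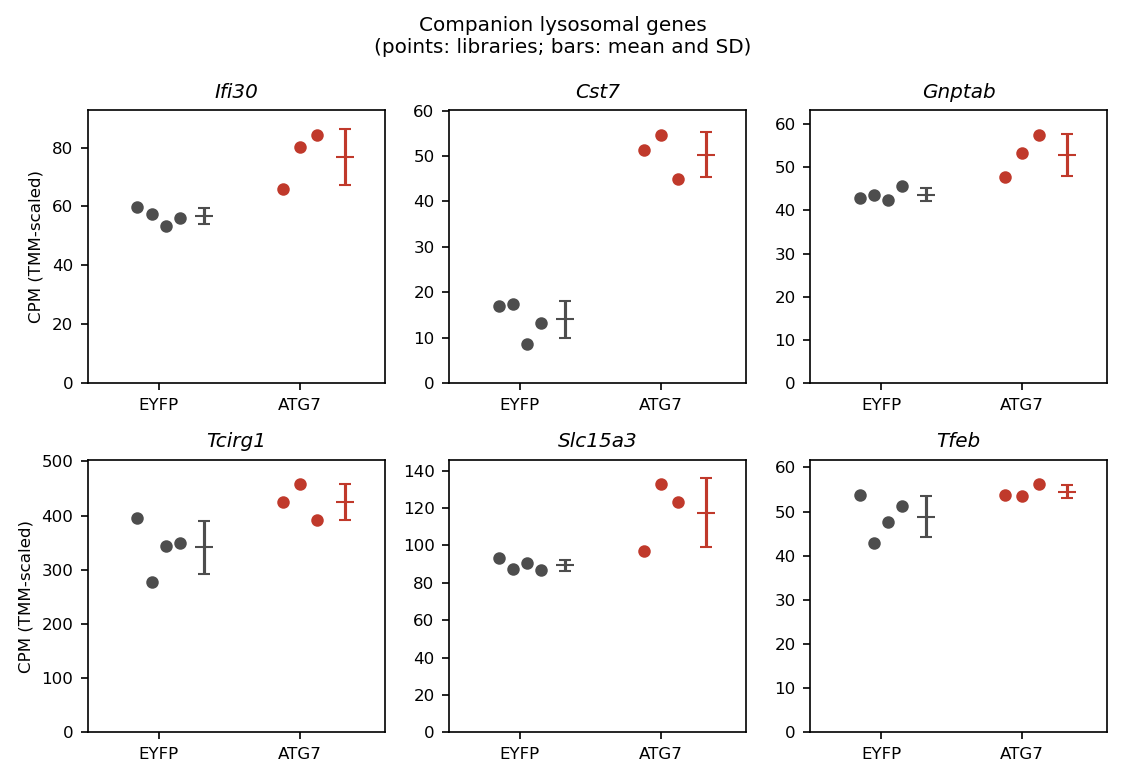
Scaled level (CPM) of the 6 companion genes named by the rule, with 1 point per library (4 EYFP, grey; 3 ATG7, red) and the mean with SD beside each group; axes start at 0. Cst7 lies at 17.5 CPM or below in EYFP and at 44.9 CPM or above in ATG7, whereas Tcirg1 and Tfeb overlap.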

How the data were processed

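The authors deposited whole-number counts per Ensembl gene for 7 libraries; per the submitters' processing notes, fastp 0.20.1, HISAT2 2.0.5, featureCounts and the builds mm10 and GRCm38 are named, with no roles. Strand setting, annotation release and handling of shared reads are not given in the sources used here. Mitochondrial genes summed to 0 counts. Columns were matched to libraries by name, and 0 columns were unmatched. Symbols, positions and merged exon lengths came from GENCODE M21 (GRCm38), which matched 55141 identifiers and left 260 unmatched.

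ATG7 was compared with EYFP by edgeR 4.0.16 in R 4.3.3 (TMM factors, filterByExpr, robust quasi-likelihood test, two-sided, Benjamini-Hochberg over 19199 genes, threshold 0.05), using all 7 libraries and no covariate. The SE was derived from the fold change and its F statistic, and 95% intervals use the t distribution with the fit's degrees of freedom. CPM are counts over library total times TMM factor. Log2 CPM used a prior count of 2. A limit of 3 counts equals 0.0543 to 0.0835 CPM, counting error only. Pairs of libraries within a group differed beyond sampling noise (chi-square per degree of freedom 19.2 to 41.3), and each was treated as 1 replicate. This does not show that they came from different mice. The code was checked on simulated counts. DESeq2 1.42.0, limma 3.58.1 (voom), other scalings, filters, covariates, a replicate block and leaving out each library were tried.

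The genes and lists were chosen with earlier results of these data known. Genes given in full by rule were those whose groups did not overlap and, per class, the 2 with the smallest p and the 2 with the highest level per kb. In each companion list they were the genes that passed or, where none did, the 1 with the smallest p. Other genes named were chosen after their values were seen. In the classes, Npc2, a soluble carrier, was placed with the lipid enzymes and Galc with the glycosidases.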

Additional observations from a re-analysis of the deposited data

Results flagged for a closer look

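Within the 4 EYFP libraries, 50 values (the 40 lysosomal genes, 4 class means and 6 companions) were examined for a lone extreme library by Dixon's gap-to-range ratio. In 4 values 1 library was far from the rest, where chance gives about 2.5. Npc2 in EYFP 2 was at 549 CPM, against 459 to 471 CPM in the other 3. Ctso, a cysteine cathepsin, was at 127 CPM in EYFP 2, against 115 to 117 CPM. Arsa in EYFP 3, the library with Xist, was at 57.6 CPM, against 45.7 to 47.7 CPM. The mean log2 CPM of the proteases was 8.83 in EYFP 4, below 8.92 to 8.93 in the other 3. Without EYFP 4 the difference of the protease means was 0.16 rather than 0.18.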

How the results depend on the processing

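The number of genes called among all tested was 145, and it was 297 with no filter (2 lysosomal genes, Ctss and Ctsz), 572 with DESeq2 (404 higher, 168 lower; 7 lysosomal genes), 12 with the choroid plexus covariate, 275 at an adjusted p under 0.1 (1 lysosomal gene, Ctsz) and 67 when scaled to microglial markers. With the microglia covariate 132 genes were called (0.688% of those tested), of which 1 was a lysosomal gene, Ctsz. Leaving out 1 library gave 28 to 277 called genes (277 without EYFP 1, 94 without EYFP 2, 164 without EYFP 3, 30 without EYFP 4, 148 without ATG7 1, 28 without ATG7 2 and 30 without ATG7 3). It gave 0 lysosomal genes called each time, and 9 to 21 that did not overlap (14.0% to 21.2% of all genes did not). Groups with fewer libraries separate more readily. The 9 genes stayed separated each time, which is no check of them. Groups already separated can come to overlap after a library is left out only through changed scaling. The replicate block, in which the replicate number was a factor, gave 0 called genes. Same-numbered libraries did not deviate together (correlations -0.061, -0.18 and 0.066), and not every library correlated best with its own number, so no pairing was assumed. The difference of class means ran from 0.144 to 0.234 for proteases, 0.00929 to 0.115 for glycosidases and sulfatases, -0.00779 to 0.0828 for lipid enzymes and carriers and 0.0417 to 0.117 for membrane proteins when 1 library was left out, the highest of each without ATG7 1 and the lowest without ATG7 3. It was 0.0249 for glycosidases and sulfatases when scaled to microglial markers. Cd68 changed sign with the block (-0.00861), the choroid plexus covariate (-0.108), microglial scaling (-0.00346) and in leaving out 1 library (-0.0529 to 0.149), and Asah1 with the choroid plexus covariate (-0.0148) and in leaving out 1 library (-0.0292 to 0.108). The cause was not tested. Scaling to microglial markers and the counts of genes not overlapping under alternatives were added after seeing the data. With 4 and 3 libraries, the SE of a lysosomal gene was between 0.0651 and 0.180 on the log2 scale, which limits what could be called.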

Other observations

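Outside the genes named by rule, 3 companions were picked after their values were seen. Grn, the precursor of the granulins that support lysosomal enzymes, was at 1295, 1169, 1284 and 1132 CPM in EYFP 1 to 4 and 1416, 1679 and 1562 CPM in ATG7 1 to 3, a log2 fold change of 0.35 (SE 0.0948, edgeR adjusted p = 0.153). Scpep1, a serine carboxypeptidase, was at 81.6, 80.2, 73.9 and 76.8 CPM in EYFP 1 to 4 and 93.1, 92.5 and 101 CPM in ATG7 1 to 3, a log2 fold change of 0.29 (SE 0.0671, edgeR adjusted p = 0.0949). Slc11a1, the metal transporter of phagocytic vacuoles, was at 200.3, 171, 195 and 189 CPM in EYFP 1 to 4 and 209, 241 and 241 CPM in ATG7 1 to 3, a log2 fold change of 0.29 (SE 0.0845, edgeR adjusted p = 0.184). In all 3 genes every ATG7 library was above every EYFP library, edgeR called none, and DESeq2 called each (adjusted p = 0.00524, 0.0116 and 0.0458). In the list of 32 further hydrolases, 23 were higher and 9 lower in ATG7, and 5 lay above and 1 below with no overlap, where 6.33% of all genes lay above and 4.90% below. The 1 below was Ids, the iduronate sulfatase, at 326 ± 32.2 CPM (SD, n = 4) in the EYFP group, compared with 282 ± 9.62 CPM (SD, n = 3) in the ATG7 group.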
